A study of Mus musculus with 2 samples.

Results

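Ccl3-high tumour neutrophils were 672 of the 10835 cells that the authors kept from 1 library of mouse tumour tissue, which is 6.20% of those cells. They were chosen by 4 measured values of the cell's own RNA, counted as unique molecular identifiers (UMIs, 1 per captured RNA molecule). The genes S100a8, S100a9, Csf3r and G0s2 together had to make up 2% or more of the UMIs, which is called the neutrophil gate here. The interferon-induced genes Isg15, Rsad2, Ifit1 and Ifit3 had to stay under 1%, Retnlg and Mmp8 together under 3 UMIs, and Ccl3 had to reach 5 UMIs. The study placed 4T1 cells, a mouse mammary carcinoma line that drives strong neutrophil accumulation in its host, under the skin of mice labelled wild type. One group of tumours received a treatment labelled PCN, named PATCH in the series title, and the control group received PBS in its place. Each group is 1 single-cell library made with 10x Chromium 3′ v3 reagents. Only the library of the treated group was analysed here, so no value below compares treatment with control, and neither the number nor the age of the animals behind it is given in the labels. With 1 library there is no replicate, no test was run, and every interval below is a 95% interval of counting error alone.

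Neutrophils are short-lived white cells that leave the bone marrow loaded with granule proteins and move into inflamed tissue along gradients of chemokines. CCL3 and CCL4 (macrophage inflammatory proteins 1 alpha and 1 beta) are chemokines of the CC family that attract monocytes, macrophages and T cells. CXCL1, CXCL2 and CXCL3 bind CXCR2 and attract further neutrophils. In tumours, neutrophils with raised Ccl3 and genes of low oxygen and of glycolysis have been described as a late, long-resident state.

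Of the 3518 kept cells that passed the neutrophil gate, 19.1% were Ccl3-high cells (interval 17.8 to 20.4%). The other gated cells fell into 3 sets by the same rule. Ccl3-low cells met every condition but the Ccl3 minimum and numbered 1178, or 33.5% of gated cells. Cells with 3 or more UMIs of Retnlg and Mmp8, called Retnlg/Mmp8 cells here, numbered 1656, or 47.1%. Retnlg encodes a resistin-like protein and Mmp8 a collagenase stored in granules, and both are typical of neutrophils that recently left the marrow. Only 12 gated cells carried the interferon-induced genes at 1% or more. The median Ccl3-high cell held 1661 UMIs (quartiles 1281.75 and 2102.75) over 628.5 genes, against 1341 UMIs in Ccl3-low cells and 2173.5 UMIs in Retnlg/Mmp8 cells. Mitochondrial UMIs were a median of 0.445% in Ccl3-high cells and 0.539% in Ccl3-low cells.

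Ccl3 itself chose the cells, so its values are a description only. The Ccl3-high cells held from 5 to 260 Ccl3 UMIs, with a median of 17.5 and quartiles of 8.75 and 38, and the median cell gave 1.16% of its UMIs to this 1 gene. Around the limit, 62 cells with 4 Ccl3 UMIs were left out, with a median of 0.274% of UMIs, and 45 cells with 5 were taken in, with a median of 0.364%. There was no gap in Ccl3 at the limit, so the border of the set is a cut through a range. A fixed number of UMIs also favours deeper cells. Among Ccl3-high and Ccl3-low cells together, 21.0% of the cells in the lowest quartile of UMIs and 54.6% in the highest were Ccl3-high. The share of UMIs from Ccl3 also differed, from 0.468% in the lowest quartile to 0.866% in the highest. When 1000 UMIs were drawn from each cell and the same minimum of 5 was applied, 16.1% of gated cells of that depth passed.

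**Figure D1:**
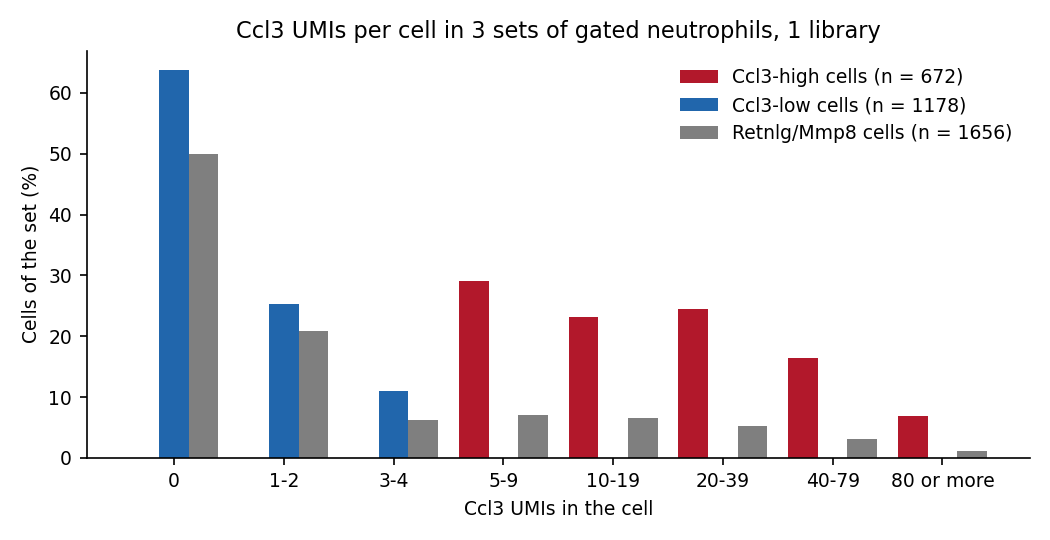
Share of cells (%, y axis) by the number of Ccl3 UMIs in the cell (x axis, ranges) for Ccl3-high, Ccl3-low and Retnlg/Mmp8 neutrophils of 1 library. Ccl3-low cells end at 4 UMIs and Ccl3-high cells begin at 5 by the rule, and 23.1% of Retnlg/Mmp8 cells reached 5 or more.

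High Ccl3 was not limited to these cells. Among Retnlg/Mmp8 cells 382 (23.1%) also held 5 or more Ccl3 UMIs, as did 5 of the 12 interferon-gene cells. Outside the gate 1628 kept cells reached that number, and 1266 of them (77.8%) carried 3 or more UMIs of a list of macrophage markers.

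The rule required the gate genes, so their presence is no finding, and their levels are given as a description. Levels are given as UMIs of the gene per 1000000 UMIs summed over a set (CPM), which compares 1 gene between sets and not 1 gene with another. S100a9, a subunit of calprotectin, stood at 31492 CPM in Ccl3-high cells, 37063 in Ccl3-low cells and 73320 in Retnlg/Mmp8 cells. G0s2, an inhibitor of lipolysis, was at 14889, 17152 and 11434 CPM in the same order, so it was lowest in Retnlg/Mmp8 cells while S100a9 was highest there. Hdc, the histamine-forming enzyme, was at 1937, 2539.8 and 1454 CPM, and Clec4d, a C-type lectin receptor of myeloid cells, at 1842, 1555 and 1036 CPM. Of 6 genes named as markers of these cells, Ccl3 was part of the rule and is not counted. Cxcl3, Hcar2 and Upp1 were over 2-fold higher than in Ccl3-low cells. Against all other gated cells Cxcl3 was 3.10-fold and Hcar2 2.95-fold higher, but Upp1 only 1.65-fold, less than Ero1a at 1.88-fold. Against Ccl3-low cells Ero1a was 1.65-fold higher (1.50 to 1.82), and Acod1 was nearly level at 1.07-fold (1.03 to 1.10). Acod1, which makes itaconate, was therefore a gene of most gated neutrophils here and not of the Ccl3-high cells alone, with 4993, 4679.8 and 2803 CPM in the 3 sets. Of the 5 markers outside the rule, Cxcl3 and Hcar2 were over 2-fold higher in both comparisons, Upp1 in 1 of them, and Ero1a and Acod1 in neither.

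Markers of other cell types were below their level over all kept cells for most lists, and lymphoid and dendritic markers were near 0. Of 10 T and NK cell markers, 8 were at 0, among them Trac and Cd4, and the list summed to 5.59 CPM. Of 7 eosinophil markers, 5 (Prg2, Epx, Ear1, Ccr3 and Il5ra) were at 0, and of 7 dendritic cell markers, 6 were at 0. The eosinophil list was not below its level over all kept cells. It summed to 9.59 CPM on 12 UMIs, 11 of them of Siglecf, against 8.28 CPM over all kept cells. The labels give breast cancer as the cell type. The 7 epithelial tumour markers summed to 46.4 CPM here, with Krt19 and Cldn7 at 0, against 280 CPM over all kept cells. Monocyte markers summed to 268 CPM (245 in Ccl3-low cells, 2779 in all kept cells), erythroid and platelet markers to 213 CPM (209 and 1987) and fibroblast markers to 168 CPM (192 and 3064). At least 3 UMIs of these lists were found in 15, 8 and 11 Ccl3-high cells. The 10 macrophage markers, none of them at 0, summed to 1577 CPM in Ccl3-high cells, 976 in Ccl3-low cells, 1033 in Retnlg/Mmp8 cells and 8898 in all kept cells. At least 3 macrophage UMIs were found in 53 Ccl3-high cells (7.89%), in 7.39% of Ccl3-low cells and in 12.4% of Retnlg/Mmp8 cells. Those 53 cells held 15.4% of all UMIs of the set, and values without them are given where they matter.

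Against all other gated cells, 152 of 5102 genes with at least 100 UMIs (2.98%) were 2-fold or more higher in Ccl3-high cells and 402 (7.88%) were 2-fold or more lower. Against Ccl3-low cells alone the counts were 52 of 3111 (1.67%) higher and 150 (4.82%) lower, and against Retnlg/Mmp8 cells 226 of 4390 (5.15%) higher and 389 (8.86%) lower. The median gene stood at a log2 ratio of -0.10 against all other gated cells, -0.20 against Ccl3-low cells and -0.03 against Retnlg/Mmp8 cells. Most UMIs of the other gated cells came from Retnlg/Mmp8 cells, so the contrast with Ccl3-low cells, which differ by the Ccl3 minimum alone, is given beside it throughout. All of these counts come from the cells the rule sorted, and nothing is read from them about the set as such.

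**Figure D2:**
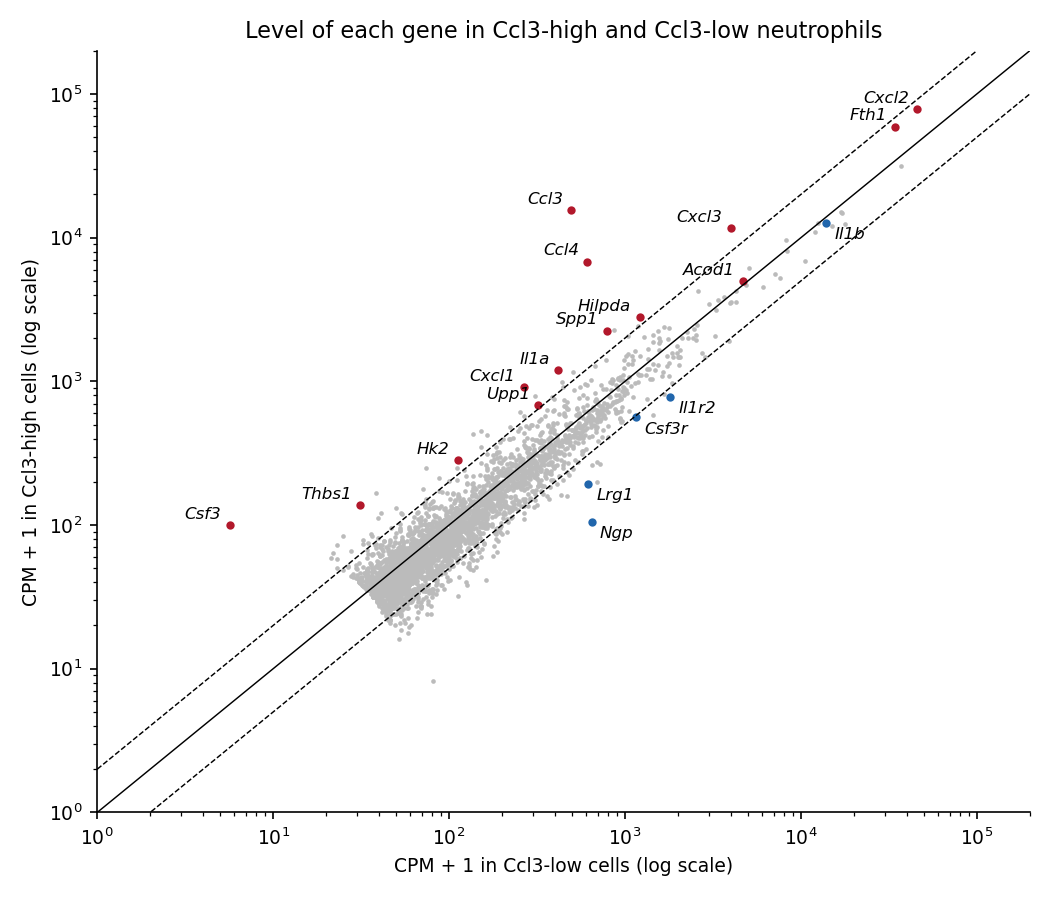
CPM + 1 of 3111 genes (grey points, log scales) in Ccl3-low (x axis) and Ccl3-high neutrophils (y axis), with the line of equal level and dashed lines at 2-fold. Named genes are coloured by direction, and Ccl3 (which chose the cells) and Ccl4 lie far above the line at 31.4-fold and 11.2-fold.

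Several chemokine genes were higher in Ccl3-high cells, Ccl4 by the most. Ccl4, which lies beside Ccl3 on chromosome 11 and encodes a related chemokine, was at 6826 CPM in Ccl3-high cells, 611 in Ccl3-low cells and 1242 in Retnlg/Mmp8 cells. That is 11.2-fold over Ccl3-low cells (10.5 to 11.9) and 6.27-fold over all other gated cells. Cxcl3 stood at 11615, 4001 and 3644 CPM in the same order, 2.90-fold over Ccl3-low cells (2.82 to 2.99). Cxcl1 stood at 910.3, 266 and 251 CPM, or 3.43-fold (3.07 to 3.83). Cxcl2 differed less in proportion, at 78691, 45797 and 31437 CPM or 1.72-fold. Ccl6, a CC chemokine of mouse myeloid cells, was 2.65-fold higher than in Ccl3-low cells, while Retnlg/Mmp8 cells at 1797 CPM lay close to the 2289.8 CPM of Ccl3-high cells. In all, 5 of 13 measured chemokine genes were 2-fold or more higher than in Ccl3-low cells, Ccl3 included, and none was 2-fold lower, with a list median of 0.78 (log2). Over all genes 1.67% were higher. Against all other gated cells, 5 of 17 chemokine genes were higher (2.98% of all genes) and 1 was lower (7.88%), with a median of 0.23. The one lower was Ppbp, a platelet chemokine with 2 UMIs in these cells. Monocyte chemokines did not share the pattern, with Ccl2 at 144 CPM against 123 and 195. Cxcl10, an interferon-induced T cell attractant, was at 63.9 against 57.7 and 26.9 CPM.

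The 100 bases before the annotated start of 3 of these chemokine genes are shown because Cxcl1 and Cxcl3 are neighbours on chromosome 5 and were high together with Ccl3 on chromosome 11. Sequences are RefSeq's, build GRCm38.p6, 5′ to 3′ on the strand of the gene, and the genes were picked after their values were seen. Capitals mark matches to the consensus of NF-kB, the factor that drives many inflammatory genes.
Ccl3, chr11:83649379-83649478, minus strand: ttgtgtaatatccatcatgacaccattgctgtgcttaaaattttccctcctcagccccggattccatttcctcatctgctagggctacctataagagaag
Cxcl1, chr5:90891145-90891244, plus strand: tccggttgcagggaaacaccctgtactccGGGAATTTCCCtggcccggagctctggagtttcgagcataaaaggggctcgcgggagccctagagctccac
Cxcl3, chr5:90786001-90786100, plus strand: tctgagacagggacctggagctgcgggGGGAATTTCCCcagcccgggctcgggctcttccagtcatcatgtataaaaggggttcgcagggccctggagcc
Ccl4 was looked up and had no entry. In Cxcl1 and Cxcl3 the capitals are the same 11 bases, made of 2 overlapping matches that begin 71 and 73 bases before the start. Over the table's windows of 300 bases (250 before and 50 after the start, both strands searched), 8.18% of 27025 genes held the NF-kB consensus. Of Ccl3 and the 15 genes with the highest ratio to all other gated cells, 11 of 16 had a window. Of these 11, 2 held NF-kB (Cxcl1 and Cxcl3), 2 held the AP-1 motif TGANTCA (Il1a and Il1rn; 7.93% of all windows), and 2 held the C/EBP motif TTGCNNAA (Csta3 and Ggta1; 10.8%). A further motif, ACGTG of the hypoxia-inducible factors, was in 3 of the 11 (19.7% of all windows). Among the 15 genes with the lowest ratio, 12 had a window, of which 1 held NF-kB, 1 AP-1, 4 C/EBP and 5 ACGTG, so the last pair were found more often there than among the highest genes. Among 30 matched genes of the hypoxia list below, 16 held ACGTG and 6 NF-kB. These are matches of letters and not measured binding.

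Among cytokine genes and targets of NF-kB a few were 2-fold or more higher and most were not. Il1a, an alarm cytokine, stood at 1193 CPM against 416 in Ccl3-low and 331 in Retnlg/Mmp8 cells, 2.87-fold over Ccl3-low cells (2.62 to 3.14). Its antagonist Il1rn was at 1156, 506 and 313 CPM, or 2.28-fold. Tnf was at 248, 110.1 and 65.8 CPM, or 2.25-fold. Sod2, the mitochondrial superoxide dismutase, was 2.57-fold higher at 794 CPM. Icam1, an adhesion receptor, was at 241, 120.1 and 42.5 CPM. Il1b did not follow. This gene of the other main interleukin 1 was at 12751 CPM in Ccl3-high cells, 13973 in Ccl3-low cells and 7243 in Retnlg/Mmp8 cells, so it was high in both sets that lack Retnlg and Mmp8. Feedback inhibitors of NF-kB lay within 2-fold of Ccl3-low cells, with Nfkbia at 1.16-fold, Tnfaip3 at 1.15-fold, Tnip1 at 1.34-fold, Zc3h12a at 1.41-fold and Nfkbid at 0.774-fold. Il23a and Ptgs2 set both sets apart from Retnlg/Mmp8 cells: Il23a was at 139, 71.1 and 20.3 CPM, and Ptgs2, the inducible cyclooxygenase, at 1419, 991 and 376 CPM. Csf3, which encodes the growth factor G-CSF, had the largest ratio of the list on few counts. Its 124 UMIs came from 35 Ccl3-high cells (21 of them from 1 cell), against 8 UMIs in Ccl3-low cells, a ratio of 21.3 (10.5 to 50.3). Of 26 measured genes of the list, 6 were 2-fold or more higher than in Ccl3-low cells and none lower (median 0.28). Against Retnlg/Mmp8 cells 14 of 27 were higher (median 1.07). Over all genes, 1.67% were 2-fold or more higher than in Ccl3-low cells and 5.15% than in Retnlg/Mmp8 cells.

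Genes of low oxygen and glycolysis were mostly somewhat higher, few of them by 2-fold. Hilpda, a lipid droplet protein induced by hypoxia, stood at 2797 CPM in Ccl3-high cells, 1209 in Ccl3-low cells and 1126 in Retnlg/Mmp8 cells, or 2.31-fold over Ccl3-low cells (2.19 to 2.44). Hk2, the inducible hexokinase, was at 281, 111 and 96.9 CPM, or 2.53-fold. Ddit4, a stress-induced inhibitor of mTORC1, was at 74.3, 33.8 and 38.5 CPM, or 2.20-fold. Egln3, an oxygen sensor of that pathway, was at 399, 201 and 167 CPM. Ero1a, an oxidase of the endoplasmic reticulum, was at 737, 446 and 374 CPM. Ldha, which makes lactate, was 1.76-fold and Bnip3, a mitophagy receptor, 1.58-fold higher than in Ccl3-low cells. In contrast Vegfa (102 and 104 CPM) and the factor gene Hif1a (726 and 903 CPM) were not higher. The lowest log2 ratios to Ccl3-low cells among measured genes were those of Pfkfb4 (-0.81), Slc2a3 (-0.67) and Slc16a3 (-0.51). Of 31 measured genes, 27 lay above the median of all genes against Ccl3-low cells, but only 3 were 2-fold or more higher (1.67% of all genes were). The list median was 0.49 (log2) against -0.20 for all genes. Against all other gated cells, 5 of 31 were 2-fold or more higher (2.98% of all genes). There 1, Slc2a3, was 2-fold lower (7.88% of all genes), and the list median was 0.41. Gapdh shows why the comparison set matters, at 944 CPM in Ccl3-high cells, 610.2 in Ccl3-low and 1324 in Retnlg/Mmp8 cells.

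The marker genes of metabolite handling were separate from that list. Hcar2, the receptor of beta-hydroxybutyrate and nicotinic acid, stood at 994 CPM, against 438 in Ccl3-low and 297 in Retnlg/Mmp8 cells, or 2.27-fold over Ccl3-low cells (2.07 to 2.49). Upp1, a uridine phosphorylase, was at 684, 321 and 448 CPM, or 2.13-fold (1.91 to 2.38). These were the 2 genes of 12 measured on the metabolite list that were 2-fold or more higher than in Ccl3-low cells, and the list median was 0.05. Over all genes 1.67% were higher. Fth1, the ferritin heavy chain that stores iron, was among the most abundant transcripts and stood at 59356, 34424 and 34254 CPM.

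At equal depth the same genes separated the sets. After 1000 UMIs were drawn from each cell, leaving 590 Ccl3-high cells (82 shallower ones left out), 840 Ccl3-low cells (338 left out) and 1548 Retnlg/Mmp8 cells (108 left out), Ccl4 was detected in 51.4% of Ccl3-high cells (47.2 to 55.5%), 15.2% of Ccl3-low cells (12.9 to 17.8%) and 20.5% of Retnlg/Mmp8 cells. Without drawing, the shares for Ccl4 were 56.5%, 19.4% and 29.4%. Free RNA in the droplets adds a background, for which 289 cells with lymphocyte genes at the same depth are given as a guide. Ccl4 was found in 7.27% of them (22.3% before drawing, at a median of 3292.5 UMIs). Before the depth limit, 25.3% of lymphocyte-gated cells held 3 or more macrophage UMIs. T and NK cells can make Ccl4 themselves. Cxcl3 was found in 75.3%, 50% and 54.1% of the 3 neutrophil sets, with 5.19% in lymphocyte-gated cells, and before drawing in 76.9%, 52.0%, 64.3% and 13.4%. Hcar2 was found in 49.7%, 27.1% and 23.1%, with 0.692% in lymphocyte-gated cells, and before drawing in 62.5%, 33.0%, 37.2% and 2.05%. For Acod1 (88.8% and 84.5%) and Il1b (97.8% and 97.4%) the shares of Ccl3-high and Ccl3-low cells lay close together, as their levels did, and before drawing they were 92.1% and 85.1% for Acod1 and 97.8% and 97.2% for Il1b. Tgif1, a repressor of TGF-beta signalling, was found in 29.7% of Ccl3-high and 10.1% of Ccl3-low cells and in 13.8% of lymphocyte-gated cells (43.8%, 14.9% and 36.3% before drawing). How much of the share in lymphocyte-gated cells is free RNA was not tested.

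**Figure D3:**
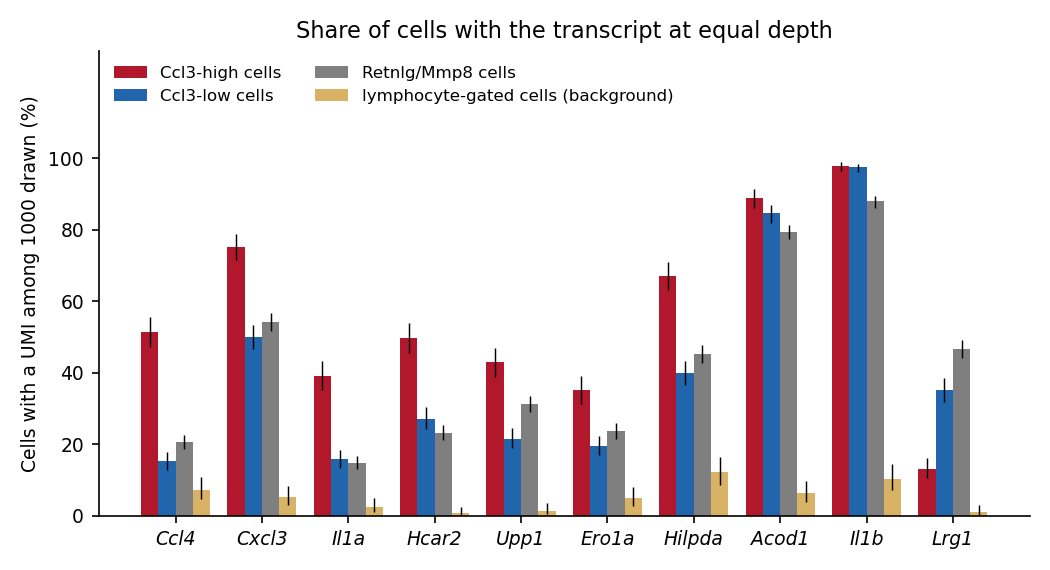
Share of cells (%, y axis) with at least 1 UMI of each gene (x axis) among 1000 UMIs drawn per cell. Sets are Ccl3-high, Ccl3-low and Retnlg/Mmp8 neutrophils, with lymphocyte-gated cells as a background whose part of free RNA was not tested. Error bars are 95% exact binomial intervals over cells, and Ccl4, Il1a and Hcar2 stand out in Ccl3-high cells while Acod1 and Il1b do not and Lrg1 is lowest there among neutrophils.

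Of the 150 genes 2-fold or more lower than in Ccl3-low cells, 7 were on the receptor list and 8 on the granule list. The rule uses 1 gene of each count, Csf3r and Mmp8, in both sets. Over all genes 4.82% were 2-fold or more lower. Csf3r, the G-CSF receptor and a gene of the gate, stood at 563 CPM in Ccl3-high cells, 1159.8 in Ccl3-low cells and 827 in Retnlg/Mmp8 cells. Cxcr2, the receptor of CXCL1 to CXCL3, was at 184, 376 and 312 CPM, or 0.489-fold of Ccl3-low cells (0.419 to 0.569). Il1r2, the decoy receptor of interleukin 1, was at 781, 1809.6 and 1084 CPM, or 0.432-fold (0.401 to 0.464). Selplg (the P-selectin ligand) and the integrin genes Itgal and Itga4, which serve rolling and adhesion, were at 0.405, 0.424 and 0.411 times their levels in Ccl3-low cells. In contrast Itgam, the integrin chain of mature myeloid cells, and Fpr1, the receptor of formyl peptides, were 1.44-fold and 1.79-fold higher. Of 35 measured receptor genes 7 were 2-fold or more lower than in Ccl3-low cells and none higher (median -0.19). For 5 of the 7 the Retnlg/Mmp8 cells lay between the Ccl3-high and Ccl3-low values. The exceptions were Selplg (75.9, 188 and 192 CPM) and Itgal (37.6, 88.6 and 121 CPM), which were highest in Retnlg/Mmp8 cells.

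Lrg1, a secreted glycoprotein of neutrophil granules, was at 193 CPM in Ccl3-high cells, 619 in Ccl3-low cells and 864 in Retnlg/Mmp8 cells, and was detected at equal depth in 13.1%, 35.1% and 46.7% of the cells (18.2%, 42.4% and 62.3% before drawing; 1.04% of lymphocyte-gated cells). Its difference was spread over many cells. Hp (haptoglobin) was at 275, 695 and 1100.2 CPM and Anxa1, an anti-inflammatory annexin, at 136, 316 and 1343 CPM. The granule genes Ngp and Camp were different in kind. Ngp was at 105, 646 and 2951 CPM, yet its 1108 UMIs in Ccl3-low cells came from 17 cells, 374 from 1 of them, and its 131 UMIs in Ccl3-high cells from 11 cells. Camp had 1193 UMIs in 12 Ccl3-low cells and 248 in 9 Ccl3-high cells, of which 240 were in 1 cell. A few cells therefore set both of these ratios. Prtn3, another granule gene, is on a list of 7 precursor markers with 266 UMIs in Ccl3-low cells. Only 3 of those cells held 3 or more UMIs of that list. Of 18 measured granule genes, 8 were 2-fold or more lower than in Ccl3-low cells and none higher (median -0.50), and 4.82% of all genes were lower. The 8 include Ngp, Camp, Prtn3 and Mmp8, and the rule limits Mmp8 in both sets. Against Retnlg/Mmp8 cells, 14 of 18 were lower (median -2.16; 8.86% of all genes), but Retnlg and Mmp8 are on that list and defined the sets. The genes with the lowest ratio to all other gated cells were those of the Retnlg/Mmp8 cells. Ly6g, the classical surface marker of mouse neutrophils, was at 5.59, 15.7 and 454 CPM, and Ifitm6 at 39.2, 124 and 1804 CPM. Padi4, the enzyme of histone citrullination, had 3 UMIs in all Ccl3-high cells against 44.5 CPM in Retnlg/Mmp8 cells. Ggt1, a gamma-glutamyltransferase, was listed at 0 UMIs among the 1251188 of the Ccl3-high cells and at 56.1 CPM in Retnlg/Mmp8 cells.

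**Figure D4:**
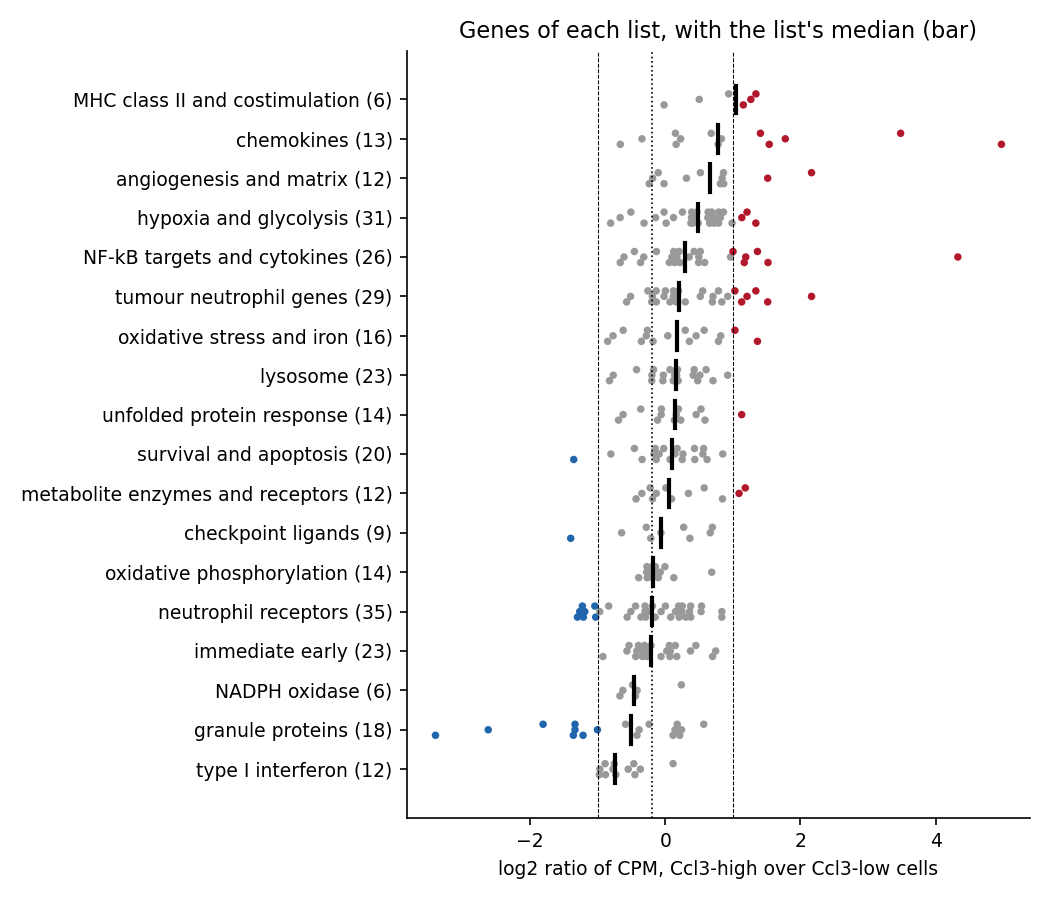
Log2 ratio of CPM, Ccl3-high over Ccl3-low neutrophils (x axis), of each measured gene of 18 lists (rows, with the number of genes). Points past 2-fold (dashed lines) are red or blue, black bars are list medians and the dotted line is the median of all genes at -0.20. Granule and receptor genes hold 15 of the lower points, Mmp8 and Csf3r of the rule among them. Ccl3, Csf3 and Ccl4 are the 3 highest.

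Genes tied to tumour neutrophils gave a mixed result. Of 29 measured, 6 were 2-fold or more higher than in Ccl3-low cells (1.67% of all genes were) and none lower, with a median of 0.20. The 6 were Thbs1, Spp1, Hk2, Hilpda, Xbp1 and Hmox1. Xbp1, a factor of the unfolded protein response, was at 484, 221 and 252 CPM. Cd274, which encodes PD-L1, was at 961, 593 and 378 CPM, 1.62-fold over Ccl3-low cells (1.49 to 1.76). Pdcd1lg2 (PD-L2) was at 52.0, 19.8 and 21.8 CPM on 65 UMIs. Siglecf, often used to mark long-lived tumour neutrophils, was rare, with 11 UMIs in 10 Ccl3-high cells and 35 in 33 Ccl3-low cells. Cd14 was level (4262, 4258 and 3497 CPM). F3, which encodes tissue factor, the trigger of coagulation, was at 248, 73.4 and 91.6 CPM, or 3.37-fold over Ccl3-low cells (2.73 to 4.18). Tgif1 was at 428, 136 and 118 CPM, or 3.14-fold. Survival genes of the Bcl2a1 family differed mainly from Retnlg/Mmp8 cells, with Bcl2a1b at 671, 456 and 206 CPM. Bcl2a1a, Bcl2a1b and Bcl2a1d are near-identical copies, so the split of counts among them is uncertain.

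The other genes at either end of the ratios had varied roles. Ggta1, the alpha-galactosyltransferase, stood at 82.3, 23.9 and 20.7 CPM, and Creb5, a transcription factor, at 350.1, 150.4 and 75.1 CPM. Csta3, a stefin that inhibits cathepsins and belongs to a cluster of close copies whose counts may be split, was at 213, 86.8 and 63.6 CPM. Clec4n, which encodes the receptor dectin-2, was at 269, 150.4 and 67.4 CPM. All 4 were lowest in Retnlg/Mmp8 cells. Against Ccl3-low cells alone, genes picked after their values were seen included Slc31a2, a copper transporter (121 against 40.2 CPM), and Plgrkt, a plasminogen receptor (130.3 against 49.0 CPM). Dach1, a transcriptional repressor, was 2.60-fold over Ccl3-low cells but below the Retnlg/Mmp8 cells (424, 163 and 507 CPM). On the lower side, Arhgap15, which restrains the GTPase Rac, was at 158, 465 and 654 CPM. Stk17b, a kinase linked to apoptosis, was at 263, 717 and 561 CPM, and Ccnd3, which encodes cyclin D3, at 159.8, 429.5 and 266 CPM. Arhgap15, Stk17b and Ccnd3 were lowest in Ccl3-high cells of all 3 sets.

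Several lists showed no difference of 2-fold from Ccl3-low cells. None of 23 immediate early genes (median -0.21), 23 lysosome genes (0.16), 14 genes of oxidative phosphorylation (-0.18), 12 interferon-induced genes (-0.74) or 6 genes of the NADPH oxidase (-0.46) passed it in either direction. The lysosome median turned to -0.10 at 1000 UMIs per cell and to -0.11 without cells with macrophage UMIs. The interferon list holds 4 genes that the rule limits. Against Retnlg/Mmp8 cells, 5 of 27 immediate early genes were 2-fold or more higher and 1 lower (median 0.52), among the higher ones Ier3, an early response gene, at 4237 CPM against 2609 and 1480.4. Of 14 genes of the unfolded protein and integrated stress responses 1 was higher, and of 16 genes of oxidative stress and iron 2 were. Of 9 checkpoint genes 1 was lower (Cd244a) and of 20 survival genes 1 (Trp53inp1). In the list of angiogenesis and matrix, 2 of 12 were higher, Thbs1 and Spp1. Over all genes, 1.67% were 2-fold or more higher than in Ccl3-low cells and 4.82% lower, so single genes of a list are not read as a result. Against Retnlg/Mmp8 cells these shares were 5.15% and 8.86%.

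Genes of antigen presentation and a few others rested on few cells. The list of MHC class II and costimulation had the highest median against Ccl3-low cells, 1.05 over 6 measured genes. The 3 that were 2-fold or more higher were H2-Aa, H2-Ab1 and H2-Eb1, while the costimulatory ligands Cd80 and Cd86 had log2 ratios of -0.02 and 0.50. Of the UMIs of H2-Aa, H2-Ab1, H2-Eb1 and Cd74, 489 (78.5%) lay in the 53 cells with macrophage UMIs and 134 in the other 619 cells. Without cells of that kind in either set the median was -0.32, so the direction turned. H2-Ea had 144 of its 207 UMIs in 1 Ccl3-high cell, and without cells with macrophage UMIs its log2 ratio to Ccl3-low cells was -0.69. Fabp5, a fatty acid binding protein, had 385 of 564 UMIs in 1 cell, and its log2 ratio went from 1.57 to -0.04. Spp1 (osteopontin) was at 2257, 789.7 and 812 CPM with 26.2% of its UMIs in 1 cell, and its log2 ratio was 1.51 with and 1.28 without the cells with macrophage UMIs. Thbs1 (thrombospondin 1), at 137, 30.3 and 174 CPM, had 56.7% of its UMIs in those 53 cells and a log2 ratio of 2.16 with and 1.76 without them. Ccl4 and Cxcl3 were the opposite case, since the 53 cells held 10.8% of the Ccl4 and 8.28% of the Cxcl3 UMIs, less than their 15.4% of all UMIs. The part of the macrophage RNA in the differences of other genes was not tested beyond these values.

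The Retnlg/Mmp8 cells held no member, but the same rule gated and sorted them, and the same Ccl3 minimum was used to split them. This split was added after the data were examined, and it is again within 1 library and a description. The 382 of them with 5 or more Ccl3 UMIs (median 2373 UMIs) were set against the 1274 with fewer (median 2091 UMIs). Over 3849 genes, 4.00% were 2-fold or more higher and 5.46% 2-fold or more lower, with a median log2 ratio of -0.05. The 15 highest and 15 lowest genes of Ccl3-high over Ccl3-low cells came from the same Ccl3 cut in this library. Their values here are therefore no independent support. Of the 15 highest, 14 were above 0 here and 10 were 2-fold or more higher (median 1.39). Of the 15 lowest, all 15 were below 0 and 11 were 2-fold or more lower (median -1.10). Ccl4 was at 4084 against 311 CPM, a ratio of 13.1 (12.3 to 14.0). Il1a was at 917 against 139 CPM, a ratio of 6.60, and F3 at 236 against 44.4 CPM, a ratio of 5.30. Tgif1 had a ratio of 4.15, Il1rn of 4.01, Cxcl3 of 4.07, Hilpda of 3.11, Hcar2 of 3.01 and Ero1a of 2.73. H2-Ea and Fabp5, whose UMIs in Ccl3-high cells lay mostly in 1 cell, were nearly level here. Their ratios were 1.03 (0.775 to 1.36) and 0.979 (0.828 to 1.15). Genes that were close between Ccl3-high and Ccl3-low cells were farther apart here. Il1b stood at 9246 against 6587 CPM (a ratio of 1.40) and Acod1 at 3746 against 2494 CPM (1.50). Cd274 stood at 724 against 265 CPM. The Retnlg/Mmp8 cells with Ccl3 also held less Retnlg (6685 against 10858 CPM), Ly6g (95.5 against 571 CPM) and Ngp (701 against 3687 CPM), so they lay toward the other gated cells in those genes as well.

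The genes that varied most among Ccl3-high cells included chemokines, ferritin and the gate genes. Over the 590 members drawn to 1000 UMIs, Saa3, an acute phase protein, had the highest ratio of variance to mean at 49.7. It was absent from 83.4% of cells, reached 168 UMIs in the highest, and 21.1% of its UMIs came from 1 cell. Ccl4 was next at 24.4, absent from 48.6% of these cells although all were high in its neighbour Ccl3, with a median of 1, a 90th percentile of 25 and a maximum of 98 UMIs. Cxcl2 (21.5), Fth1 (18.6), S100a9 (16.7), Cxcl3 (15.9), G0s2 (14.2), Spp1 (13.5), Ccl3 (12.6) and S100a8 (11.5) completed the 10 highest. Cxcl2 was absent from 0.17% of cells and Cxcl3 from 24.7%. As a description over these 590 cells of 1 library, which share depth by construction, the log2 levels of Cxcl3 and Cxcl2 had a Pearson r of 0.44, Ccl3 and Cxcl2 0.43, Ccl3 and Ccl4 0.36, and Ccl3 and Cxcl3 0.33. Il1b went the other way from Hcar2 (-0.27), Ero1a (-0.27) and Hilpda (-0.25). Ccl3 and Acod1 had an r of 0.02.

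Levels also changed in steps over the range of Ccl3 within the set. The ranges were 5 to 9 Ccl3 UMIs (195 cells), 10 to 19 (156), 20 to 39 (165), 40 to 79 (110) and 80 or more (46), with median depths of 1439, 1532.5, 1731, 1913 and 2272 UMIs. Ccl4 stood at 2203, 4526, 5890.4, 11562 and 17484 CPM over these ranges. Cxcl3 went from 6913 to 22757 CPM, Cxcl2 from 60469.6 to 124583, Hcar2 from 733 to 1446 and Il1rn from 797 to 1816, each higher in every range than in the one before. Sod2 showed the same order, from 631 to 1614 CPM. Lrg1 had the reverse order, from 378 CPM at 5 to 9 Ccl3 UMIs to 44.1 at 80 or more, and so did Csf3r, from 794 to 317, and Il1b, from 14248 to 11039. G0s2 was at 16233 CPM in the first range, 16997 in the second and 9734 in the last. Acod1 (5437 and 4682 CPM in the first and last range), Nfkbia (9644 and 9002) and Slc2a1, the main glucose carrier (493 and 406), were somewhat lower in the last range, without a steady order over the ranges. The larger share of UMIs from Cxcl2 in the last range (124583 CPM, against 60469.6 in the first) lowers the CPM of other genes by construction. How much of the lower values above goes with this was not tested.

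**Figure D5:**
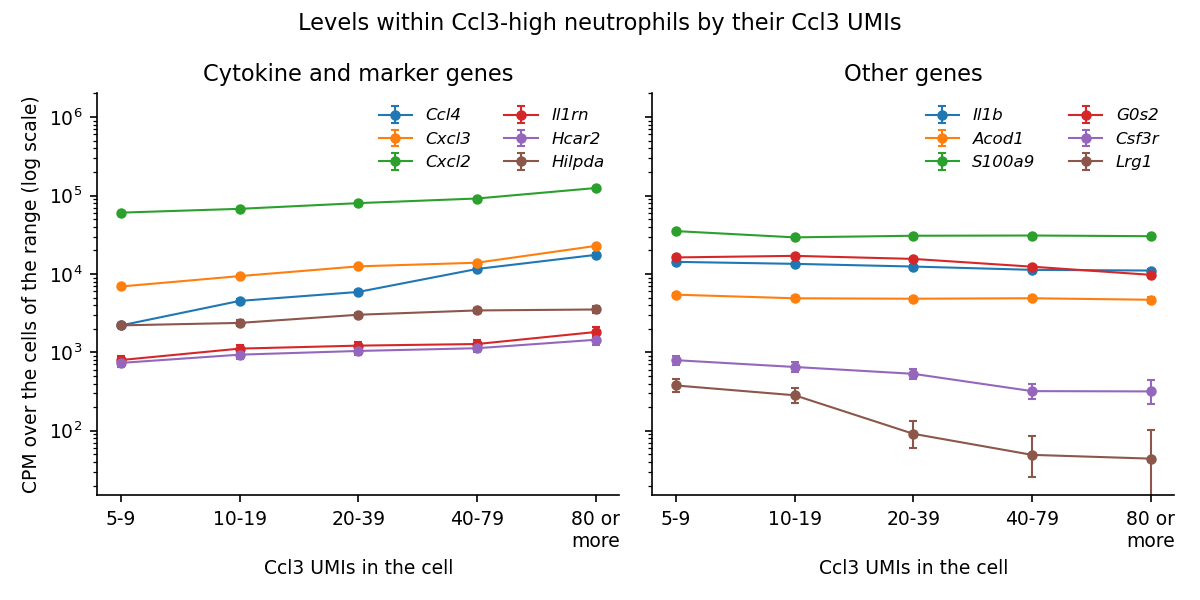
CPM (log scale, y axis) of 12 genes in Ccl3-high neutrophils grouped by their Ccl3 UMIs (x axis), with 95% Poisson intervals of the summed UMIs as error bars. Ccl4, Cxcl3 and Cxcl2 climb from the first range to the last, Acod1 stays between 4682 and 5437 CPM, and Csf3r and Lrg1 descend.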

How the data were processed

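Single-cell RNA from 2 libraries, 1 per group, was made with 10x Chromium 3′ v3 reagents, per the labels' protocols. The deposited count matrix of the treated library holds UMI counts per gene and barcode, written by Cell Ranger 8.0.1 per the file headers. Cell Ranger and STAR are named per the submitters' processing notes, and no source used here names the genome build or annotation. It holds 12309 barcodes, 33696 gene rows and 96873409 UMIs. The authors' deposited cell list gave the cells kept: all 10835 treated barcodes are in the matrix, against 37 of 11643 control barcodes, and 33 barcode sequences stand in both lists. Control counts were not analysed here.

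Rows sharing a gene symbol were summed. UMIs were summed per set, since cells are not replicates, and given per 1000000 UMIs (CPM) with exact Poisson, exact conditional (ratios) or Clopper-Pearson (shares) 95% intervals. On sums simulated with counting error alone, the ratio intervals held the true value for 95.5% of unchanged genes. For genes changed by a known factor it was 90% to 98%. Variation between cells was not simulated, so this does not show how the intervals hold in these cells. A gene was measured with at least 100 UMIs over both sets, with 0.5 counts added to a ratio, and 2-fold was the limit for higher or lower. Equal depth means 1000 UMIs drawn per cell with a fixed seed. Cells were not removed as doublets. Scrublet scores from scanpy 1.11.5 were used to leave out the 5% of cells with the highest scores as an alternative, and the 672 Ccl3-high cells held 15 of these. Lymphocyte-gated cells had 2 or more UMIs of lymphocyte genes and S100a8 and S100a9 together under 0.5% of UMIs. Python 3.11.15, numpy 2.4.6, scipy 1.17.1 and pandas 2.3.3 were used. Promoters are RefSeq's, matched by symbol.

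Genes named were those of the rule and markers, the 15 highest and 15 lowest ratios to other gated cells among genes with at least 200 UMIs (leaving out mitochondrial, ribosomal, antigen receptor, haemoglobin and predicted genes), up to 4 per list and the 10 most variable genes. Other genes, the 15 highest and lowest against Ccl3-low cells and the promoters were picked after their values were seen. The members and lists were chosen with earlier results of these data known. Alternatives varied the Ccl3 and gate limits, depth, gene minimum, comparison set and left-out cells. The values of 1 gene counted in the receptor list are not reported here.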

Additional observations from a re-analysis of the deposited data

How the results depend on the processing

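No paired analysis was possible because each group is 1 library, and for the same reason no replicate could be left out. The Ccl3-high share of gated cells, 19.1%, was 22.8% with a Ccl3 minimum of 3 UMIs, 13.6% with 10 UMIs, 22.3% with a minimum of 0.2% of UMIs and 15.5% with a gate at 4% of UMIs. It was 16.1% with 5 Ccl3 UMIs among 1000 drawn, an alternative chosen after seeing the data. The 152 genes higher and 402 lower than in all other gated cells were of 5102 measured. The counts became 74 and 264 of 2947 at 1000 UMIs per cell, and 52 and 150 of 3111 against Ccl3-low cells alone. A minimum of 20 UMIs per gene gave 463 and 951 of 9223, and a minimum of 500 gave 55 and 139 of 1862. The mean over cells of each cell's share of UMIs gave 105 and 462 of 5102. These held 94 of the 152 and 342 of the 402. Of the 79 named genes past 2-fold against other gated cells, 43 stayed past it in the same direction against Ccl3-low cells alone. It was 62 with the mean over cells of each cell's share of UMIs and 63 at 1000 UMIs per cell. Under the other alternatives scored for these genes, 69 to 79 stayed. Of the same 79, 7 turned direction under some alternative. Smaller differences turned too against Ccl3-low cells, among them Cybb (-0.97 to 0.24), Hdc (0.14 to -0.39), G0s2 (0.20 to -0.20), Il1b (0.49 to -0.13) and Gapdh (-0.25 to 0.63). Of the 18 list medians against other gated cells, up to 3 changed sign (gate at 4%). H2-Ea had a log2 ratio of -0.12 in cells of 2000 to 5000 UMIs, -0.97 with the gate at 4% and -0.24 without cells with macrophage UMIs. H2-Aa (-0.22) and H2-Ab1 (-0.31) turned with the gate at 4%. Arg1 was at 0.52 in cells of 2000 to 5000 UMIs, 0.22 without cells with macrophage UMIs and 0.25 without the highest doublet scores. Mmp12 was at 0.24 against Ccl3-low cells and 0.58 without cells with macrophage UMIs. Ppbp was at 0.15 in cells of 2000 to 5000 UMIs and 1.19 against Ccl3-low cells, on 2 and 3 UMIs, and Atf5 was at -0.058 against Ccl3-low cells. The cause was not tested. Genes under 100 UMIs were left out of the counts at the usual minimum, and the values of Siglecf and Pdcd1lg2 rest on fewer UMIs than that.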
